A study of Mus musculus with 12 samples.

Results

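The quantity described here is how far the effect of losing Hopx on bone marrow gene expression differed between mice that overexpressed MN1 and mice that did not. For each gene it is the knockout effect with MN1 minus the knockout effect without it, a difference of 2 log2 differences. All 12 libraries of the series enter it, 12 of 12, with 3 in each of 4 groups. The MN1_KO and MN1_WT groups were marrow cells of Hopx-knockout and Hopx-wildtype C57BL/6 mice with MN1 overexpression, at a labelled age of 16 weeks. The aged_KO and aged_WT groups were marrow cells of Hopx-knockout and Hopx-wildtype C57BL/6 mice without it, which the labels call aged and list at 18 weeks. RNA was sequenced from stranded mRNA libraries. MN1 status, age and table coincide, so a difference of effects cannot be told apart between them. The labels name neither the vector or promoter behind MN1, nor the Hopx allele, sex or sequencing batch, and marrow was not described as sorted into cell types.

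Hopx encodes a small homeodomain protein that lacks DNA binding and works through partner factors, and in marrow it is known as a marker and regulator of stem cells. MN1 is a transcriptional coregulator, and its overexpression blocks myeloid differentiation and causes acute myeloid leukaemia in mice. Bulk marrow mixes granulocytes, monocytes, lymphoid, erythroid and progenitor cells, so fewer cells of a type and less RNA per cell cannot be told apart in any value below.

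Library totals ran from 16544388 to 28409034 counts. Levels are CPM, counts scaled to a common library size, after TMM scaling of the library totals, unless said otherwise. The MN1_WT group was not uniform. Unscaled Mn1 was 22.1 to 47.3 CPM in the MN1_KO libraries and 36.4 CPM in MN1_WT replicate 3, but 0.395 and 0.16 CPM in MN1_WT replicates 2 and 4, beside 0.0704 to 1.18 CPM in the aged libraries. The summed level of 4 Y-linked genes was 8.05 to 21.6 CPM in MN1_KO, against 81.8 CPM in MN1_WT replicate 3 and 241 and 229 CPM in its group mates. The aged libraries held at most 0.152 CPM. Xist, expressed from the inactive X chromosome, was 585 to 4940 CPM in MN1_KO, against 4000 CPM in MN1_WT replicate 3 and 18.1 and 2.4 CPM in MN1_WT replicates 2 and 4, and 435 to 823 CPM in the aged libraries. Between MN1_WT replicates 2 and 4 and the MN1_KO libraries, Hopx genotype, Mn1 level and the expression of sex-linked genes cannot be told apart. Over the tested genes, MN1_WT replicate 3 lay nearer to the MN1_KO mean than to the mean of its 2 group mates in 9826 of 13937 genes, 70.5%. The counts of calls without replicates 2 and 4 are given below. With MN1_WT replicates 2 and 4 left out, the lone MN1_WT library is assumed to vary like the other groups.

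Most genes whose knockout effect differed between the experiments had fitted effects of opposite sign in them. The lowest group mean was most often that of MN1_KO, and the highest most often that of aged_KO. Of 13937 genes tested, 463 (3.32%) had a knockout effect that differed between the MN1 and the aged libraries at an edgeR adjusted p below 0.05, and 3098 had an unadjusted p below 0.05. The difference, MN1 minus aged, was above 0 for 196 (1.41%) and below 0 for 267 (1.92%). The median size was 2.14 among the higher genes and -1.85 among the lower genes on the log2 scale, and 225 genes reached a size of at least 2. Over all tested genes the median difference was 0.08.

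The 2 effects had opposite signs in 406 of these 463 genes (87.7%), and the same sign in 57. Over all tested genes the share with opposite signs was 57.8%, and choosing genes by the difference favours opposite signs, so the share among the 463 is a description. For 241 genes the aged effect was the larger in size and for 222 the MN1 effect was. Fitted in the same model, the MN1 effect alone passed for 464 genes (3.33%), 162 higher (1.16%) and 302 lower (2.17%), and the aged effect alone for 818 (5.87%), 236 higher (1.69%) and 582 lower (4.18%). Among the 463, the aged effect also passed in 218, the MN1 effect in 169, both in 27 (25 with opposite signs), and neither in 103. Statements below that the MN1 effect passed rest on the spread shared with the aged libraries, since edgeR on the MN1 table alone called 0 genes (1454 at an unadjusted p below 0.05), and in the shared model 38 were called without MN1_WT replicates 2 and 4. The knockout and wild-type libraries did not overlap in 320 of the 463 genes in the MN1 experiment (15.8% of all tested genes) and in 411 in the aged experiment (46.6% of all). Among the 267 lower genes, aged_KO had the highest group mean in 244 and MN1_KO the lowest in 227. Among the 196 higher genes, MN1_KO had the highest mean in 106 and aged_WT in 85, while aged_KO had the lowest in 129 and MN1_WT in 63. Choosing genes by the difference favours these orders of the groups as well, so these counts are also a description.

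**Figure D1:**
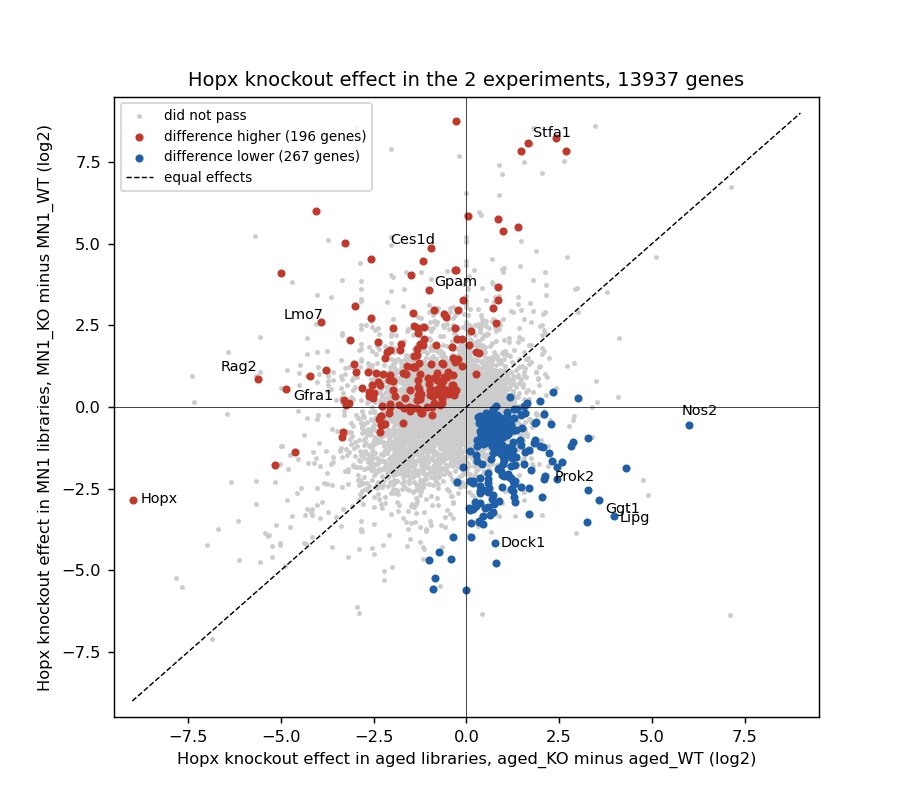
Hopx knockout effect of 13937 genes in the MN1 libraries (vertical axis, log2, MN1_KO minus MN1_WT) against that in the aged libraries (horizontal axis, log2, aged_KO minus aged_WT), 1 point per gene. Genes with a higher difference (red, 196) lie above the dashed line of equal effects and genes with a lower one (blue, 267) below it, and 406 of them fall in the quadrants where the signs are opposite.

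Hopx itself (chromosome 5, 77086988 to 77115121, minus strand, mm10) checks the genotype labels. It stood at 2.84, 3.12 and 2.93 CPM in MN1_KO replicates 5, 7 and 8, and at 27, 11.8 and 25.3 CPM in MN1_WT replicates 2, 3 and 4. In the aged experiment it stood at 0, 0 and 0.141 CPM in aged_KO replicates 3, 9 and 10, and at 15, 35.1 and 15.3 CPM in aged_WT replicates 1, 6 and 7. Knockout libraries were below wild-type ones in both experiments without overlap, but the MN1_KO libraries kept a measurable level and the aged_KO libraries held 2 counts in all against 1288 in aged_WT (ratio 0.00166, 95% counting interval 0.000201 to 0.00601). The fitted effects were -2.85 ± 0.49 (SE) with MN1 and -8.97 ± 0.78 without, and their difference of 6.12 ± 0.96 passed (edgeR adjusted p = 0.0134). The size of that difference depends on the prior count given to a group near 0. Its edgeR adjusted p was 0.0522 without aged_KO replicate 9, and 0.0727 with limma voom. On log2 of CPM plus 0.5 the difference was 2.67, with p = 0.31 in a two-sided exact permutation test of 400 arrangements within the experiments. By the number of arrangements its smallest possible p is 0.005. The test shuffles knockout labels within each experiment, so it supposes no knockout effect in either. Hopx fell in both, so that p cannot decide whether the 2 effects differ.

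Mn1 (chromosome 5, 111417362 to 111457033, plus strand) had a difference of effects of 4.25 ± 2.25 that did not pass (edgeR adjusted p = 0.288). Its TMM-scaled level was 38.4, 41.1 and 22.2 CPM in MN1_KO, and 0.383, 30.5 and 0.158 CPM in MN1_WT replicates 2, 3 and 4. It stood at 0.181, 0.0859 and 0.212 CPM in aged_KO and at 1.25, 1.02 and 0.458 CPM in aged_WT. Without MN1_WT replicate 3 the difference was 9.45 and passed (edgeR adjusted p = 0.000193), so that library sets the value. On log2 of CPM plus 0.5 the difference was 4.79, with p = 0.02 in the same two-sided exact permutation test (adjusted p = 0.04 over Hopx and Mn1, the 2 genes tested this way). That p too is against no knockout effect in either experiment, not against equal effects.

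Ggt1 (chromosome 10, 75561604 to 75586200, plus strand), which cleaves extracellular glutathione, and Lmo7 (chromosome 14, 101729957 to 101934710, plus strand), a LIM-domain protein of cell junctions, had the smallest adjusted p of all genes, and moved in opposite directions. Ggt1 stood at 1.14, 1.41 and 1.57 CPM in MN1_KO against 13.5, 6.44 and 9.85 CPM in MN1_WT, and at 38, 35.6 and 53.8 CPM in aged_KO against 3.35, 5.1 and 2.19 CPM in aged_WT. Every MN1_KO library was below every MN1_WT library, and every aged_KO library was above every aged_WT library. The fall with MN1 was -2.85 ± 0.36 and the rise without it was 3.58 ± 0.37, a difference of -6.43 ± 0.51 (edgeR adjusted p = 0.000906). Lmo7 mirrored this at a low level, with 5.45, 8.11 and 7.47 CPM in MN1_KO against 0.881, 1.25 and 1.31 CPM in MN1_WT, and 0.12, 0.172 and 0.212 CPM in aged_KO against 3.01, 1.6 and 3.21 CPM in aged_WT. Again neither pair of groups overlapped. Its difference was 6.53 ± 0.55 (edgeR adjusted p = 0.000906). In MN1_WT replicate 3, where Mn1 was high, Ggt1 and Lmo7 stayed with the other MN1_WT libraries. Over the 463 genes this was mixed. That replicate lay nearer to the MN1_KO mean than to its 2 group mates in 235 (50.8%, beside 70.5% of all tested genes). These were 71 of the 196 higher and 164 of the 267 lower genes. Genes pass more readily where the MN1_WT libraries lie close together, which favours a lower share, so these counts are a description.

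Ggt1 and Lmo7 belong to 25 genes whose effects passed in opposite directions in the 2 experiments, and 22 of those 25 fell with MN1 and rose without it. Lipg (chromosome 18, 74939322 to 74961263, minus strand), endothelial lipase, had the lowest difference of the genes named here, at -7.31 ± 1.05 (edgeR adjusted p = 0.0114). It stood at 7.22, 12 and 2.58 CPM in MN1_KO against 104, 46.3 and 68.9 CPM in MN1_WT, and at 413, 139 and 316 CPM in aged_KO against 23, 27.9 and 4.12 CPM in aged_WT. Prok2 (chromosome 6, 99711299 to 99726392, minus strand), a secreted prokineticin made by granulocytes, stood at 1.04, 0.512 and 2.75 CPM in MN1_KO against 12, 7.45 and 5.7 CPM in MN1_WT, and at 41.3, 39.4 and 50.5 CPM in aged_KO against 3.13, 6.75 and 3.46 CPM in aged_WT. Lipg and Prok2 were thus lowest in MN1_KO and highest in aged_KO, with no overlap in either experiment. The difference for Prok2 was -5.85 ± 0.75 (edgeR adjusted p = 0.0065).

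The same crossing was measured for surface, signalling and trafficking genes. Cxcr1 (chromosome 1, 74191785 to 74194631, minus strand), a chemokine receptor, stood at 0.401, 0.811 and 0.524 CPM in MN1_KO against 6.78, 2.12 and 2.89 CPM in MN1_WT, and at 12.6, 14 and 11.3 CPM in aged_KO against 3.75, 3.45 and 2.09 CPM in aged_WT. Its difference was -4.79 ± 0.64 (edgeR adjusted p = 0.00838). Ifitm1, an interferon-inducible membrane protein, averaged 8.64 CPM in MN1_KO against 39.9 CPM in MN1_WT, and 318 CPM in aged_KO against 75.1 CPM in aged_WT, a difference of -4.29 ± 0.57. Upp1, the uridine phosphorylase, Asprv1, a retroviral-like aspartic protease, and Lrrc75b, a leucine-rich repeat protein, had differences of -4.24, -4.64 and -4.97. Dmxl2, a regulator of the vacuolar proton pump, and Tbc1d14, a regulator of autophagosome formation, were abundant and had differences of -4.17 ± 0.44 and -1.44 ± 0.15 (edgeR adjusted p = 0.00372 for each). In all 7 genes MN1_KO had the lowest mean, aged_KO had the highest and no library of a knockout group overlapped its wild type. The fits without any 1 of the 12 libraries all kept the calls of Ggt1, Lmo7, Lipg, Prok2 and these 7. The calls of Lipg and Asprv1 ended without MN1_WT replicates 2 and 4 together, at -6.69 and -3.77 (edgeR adjusted p = 0.0627 and 0.0824).

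**Figure D2:**
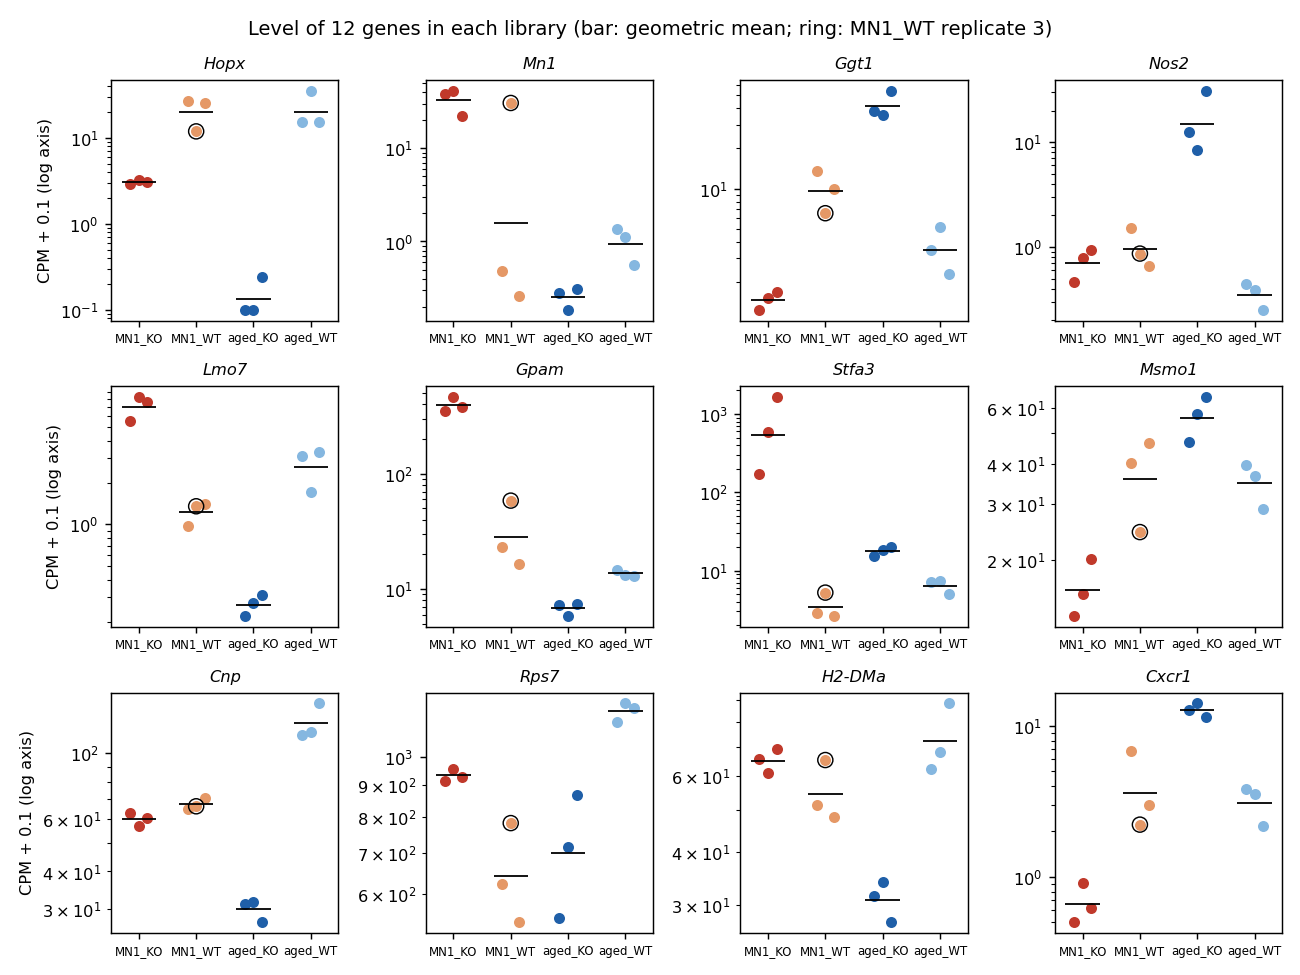
Level of 12 genes in each library, as CPM plus 0.1 on a log axis, with MN1_KO, MN1_WT, aged_KO and aged_WT from left to right, 3 points each, a bar at the geometric mean and a ring on MN1_WT replicate 3. Ggt1 and Cxcr1 are low in MN1_KO and high in aged_KO, Lmo7 is the reverse, and Mn1 in the ringed library (30.5 CPM) sits with MN1_KO.

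The stefin A genes were far higher in MN1_KO than in any other group. They encode small cytosolic inhibitors of cathepsin proteases and form a cluster of related copies on chromosome 16. Reads can be split between related copies, so the count of each copy is uncertain. How alike their transcripts are was not measured. The 4 stefin genes of the mature neutrophil list all had a higher difference. The 250 bases before and 50 after the start of Stfa1, Stfa2 and Stfa3 (RefSeq, GRCm38.p6) are shown because the transcripts of these genes moved together and their upstream sequence is itself alike. Capitals mark the longest run common to the 3, 17 bases at the transcription start. They lie at chr16:36276898-36277197 on the plus strand, chr16:36408314-36408613 on the minus strand and chr16:36455343-36455642 on the minus strand.
Stfa1: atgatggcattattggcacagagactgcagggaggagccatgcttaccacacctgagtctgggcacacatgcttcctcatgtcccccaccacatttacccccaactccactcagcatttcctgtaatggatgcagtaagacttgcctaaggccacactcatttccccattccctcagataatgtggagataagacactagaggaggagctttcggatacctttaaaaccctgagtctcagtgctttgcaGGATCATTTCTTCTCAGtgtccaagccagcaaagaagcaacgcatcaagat
Stfa2: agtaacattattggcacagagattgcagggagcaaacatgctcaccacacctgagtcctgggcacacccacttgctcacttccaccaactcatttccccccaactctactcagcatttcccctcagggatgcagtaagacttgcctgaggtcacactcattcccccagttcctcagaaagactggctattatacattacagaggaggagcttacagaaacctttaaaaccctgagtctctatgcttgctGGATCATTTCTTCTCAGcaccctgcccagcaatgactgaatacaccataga
Stfa3: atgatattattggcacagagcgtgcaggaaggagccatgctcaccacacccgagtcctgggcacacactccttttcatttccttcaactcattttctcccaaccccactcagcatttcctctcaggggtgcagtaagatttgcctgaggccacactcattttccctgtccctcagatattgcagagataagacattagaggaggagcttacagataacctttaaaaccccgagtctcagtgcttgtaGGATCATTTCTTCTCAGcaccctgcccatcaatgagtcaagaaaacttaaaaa
Aligned in pairs, these windows were 78.9% (Stfa1 and Stfa2), 80.6% (Stfa1 and Stfa3) and 80.9% (Stfa2 and Stfa3) identical. The run GGATCATTTCTTCTCAG was searched on both strands and was in 6 of 32851 promoter windows of the same length (0.0183%). These include the windows of Stfa1, Stfa2, Stfa3 and the related gene Stfa2l1. The run was chosen as common to the 3 genes shown, so its presence in them was fixed by that choice.

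Stfa3 (chromosome 16, 36450537 to 36455392, minus strand) stood at 169, 581 and 1640 CPM in MN1_KO replicates 5, 7 and 8 against 2.76, 5.12 and 2.53 CPM in MN1_WT. In the aged experiment it stood at 15.1, 18.4 and 19.7 CPM in aged_KO against 7.1, 7.28 and 4.84 CPM in aged_WT. All knockout libraries were above all wild-type libraries in both experiments, so this is 1 of 57 genes whose effects had the same sign and different sizes. The effect was 7.84 ± 0.8 with MN1 and 1.47 ± 0.63 without, a difference of 6.37 ± 0.93 (edgeR adjusted p = 0.0123). MN1_KO replicate 8 held the highest level of every stefin, with 5590 CPM of Stfa1 against 651 and 1760 CPM in replicates 5 and 7. That library also had a summed level of the 17 mature neutrophil genes of 72000 CPM, against 14900 and 38400 CPM in MN1_KO replicates 5 and 7 and 20100 to 50800 CPM in MN1_WT. The 17 include the 4 stefins, and the other 13 summed to 57000 CPM in that library, against 13100 and 33300 CPM in MN1_KO replicates 5 and 7 and 20000 to 50800 CPM in MN1_WT. The part of neutrophil content in the stefin result was not tested.

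Stfa1, Stfa2 and BC100530, another stefin A gene, had differences of 6.43 ± 1.13, 5.16 ± 1.09 and 5.85 ± 1.12. They passed in 6, 4 and 5 of the 12 fits that left out 1 library, and Stfa3 in 12. The losses came without aged_WT 6, aged_WT 7, aged_KO 3, aged_KO 9, MN1_WT 2 or MN1_WT 4 for all 3 genes, without aged_WT 1 for Stfa2 and BC100530, and without aged_KO 10 for Stfa2, with edgeR adjusted p-values of 0.0505 to 0.0981. Without MN1_WT replicates 2 and 4 together none of the 4 passed, and their differences were 5.49, 4.55, 5.80 and 4.80 for Stfa1, Stfa2, Stfa3 and BC100530. Stfa2l1 and the predicted genes Gm5483 and Gm5416, chosen after their values were seen, also passed, at 4.39, 4.91 and 9.04.

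Gpam, Cyp2j6 and Ces1d were higher in MN1_KO than in any other group. Gpam (chromosome 19, 55067268 to 55127238, minus strand), the mitochondrial acyltransferase that starts glycerolipid synthesis, stood at 349, 460 and 375 CPM in MN1_KO against 23.1, 58.3 and 16.5 CPM in MN1_WT, and at 7.22, 5.75 and 7.27 CPM in aged_KO against 14.6, 13.2 and 13 CPM in aged_WT. The groups were apart in both experiments, in opposite directions, with MN1_WT replicate 3 the highest of its group. Its difference was 4.61 ± 0.54 (edgeR adjusted p = 0.00506), and 3.75 without MN1_WT replicates 2 and 4 (edgeR adjusted p = 0.0035). Cyp2j6, a cytochrome P450, stood at 44.4, 26.3 and 39.3 CPM in MN1_KO against 1.49, 3.55 and 0.91 CPM in MN1_WT, and at 0.903 to 1.55 CPM in aged_KO and 1.16 to 1.88 CPM in aged_WT, which overlap. Its difference of 4.51 ± 0.65 was made of an effect of 4.20 with MN1 and -0.31 without. Ces1d, a carboxylesterase that hydrolyses lipids and drugs, had 34.1, 38.6 and 137 CPM in MN1_KO against 1.49, 3.72 and 1.86 CPM in MN1_WT, and 11.7 to 17.1 CPM in aged_KO against 24.6 to 29.6 CPM in aged_WT, a difference of 5.84 ± 0.75. The calls of Gpam, Cyp2j6 and Ces1d held in all 12 fits without 1 library. Cyp2j6 also passed without MN1_WT replicates 2 and 4 together, at 3.64, and Ces1d did not, at 5.17 (edgeR adjusted p = 0.0393 and 0.0914).

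Other genes high in MN1_KO were less stable. Hpgd, which inactivates prostaglandins, stood at 30.2, 33.8 and 223 CPM in MN1_KO against 4.42 to 6.96 CPM in MN1_WT, and its difference was 5.52 ± 0.99. Rab15, a vesicle GTPase, stood at 4.44, 47.1 and 17.8 CPM in MN1_KO and below 1 CPM in the other 9 libraries, with a difference of 5.8 ± 1.15. Olfm4, a secreted protein of neutrophil granules, stood at 139, 952 and 633 CPM in MN1_KO against 30.5, 14.3 and 48.5 CPM in MN1_WT, and at 142 to 204 CPM in aged_KO against 199 to 250 CPM in aged_WT. The 3 MN1_KO libraries spread widely for each, and the 3 calls held in 6, 4 and 5 of 12 fits. All 3 calls ended without aged_WT 6 or 7, aged_KO 3 or 9, or MN1_WT 2, those of Rab15 and Olfm4 also without aged_WT 1 or aged_KO 10, and those of Hpgd and Rab15 without MN1_WT 4 (edgeR adjusted p = 0.0512 to 0.0842). Gpx7, an endoplasmic reticulum peroxidase, had a difference of 5.28 ± 1.26 that held in 2 of 12 fits, those without MN1_WT 3 or MN1_KO 8 (edgeR adjusted p = 0.0671 to 0.128 in the others). It averaged 6.81 CPM in MN1_KO against 1.02 CPM in MN1_WT, and 0.098 CPM in aged_KO against 0.582 CPM in aged_WT. The aged_KO libraries held 5 counts in all and the aged_WT libraries 34, so the size of the difference depends on the prior count.

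Dock1, Chil5, Stxbp6, Skint3 and Chit1 were low in MN1_KO, and their aged effect did not pass. Dock1 (chromosome 7, 134670654 to 135173639, plus strand), an activator of the GTPase Rac in cell movement and engulfment, stood at 0.702, 1.41 and 0.611 CPM in MN1_KO against 20.4, 6.99 and 21.8 CPM in MN1_WT, and at 35.2, 32.9 and 32.3 CPM in aged_KO against 18.4, 23.1 and 17.8 CPM in aged_WT. MN1_KO was below every other library. The effect of -4.17 ± 0.45 with MN1 passed on its own and that of 0.76 ± 0.38 without MN1 did not (edgeR adjusted p = 0.00225 and 0.265), and the difference was -4.93 ± 0.58. Chil5, a chitinase-like protein, stood at 0.501, 1.15 and 0.961 CPM in MN1_KO against 8.88, 5.92 and 11 CPM in MN1_WT, beside 23.7 to 28.2 CPM in aged_KO and 13.1 to 19.9 CPM in aged_WT, a difference of -3.93 ± 0.44. Stxbp6, which binds syntaxins in membrane fusion, Skint3, an immunoglobulin-domain membrane protein, and Chit1, a chitinase, had differences of -4.39, -4.22 and -4.24. Their level in MN1_KO was at most 0.917 CPM, and Stxbp6, Skint3 and Chit1 were all above that in the other 9 libraries. The Stxbp6 call ended without aged_WT 1, 6 or 7, aged_KO 3 or 9, or MN1_WT 2 or 4, the Chit1 call without aged_WT 1, 6 or 7 or aged_KO 3, and the Skint3 call without aged_WT 6 (edgeR adjusted p = 0.0506 to 0.0728). All 3 calls ended without MN1_WT replicates 2 and 4 together (edgeR adjusted p = 0.147, 0.0824 and 0.108), while those of Dock1 and Chil5 held.

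In Nos2, Gfra1, Cnp and Scamp1 the aged effect passed and the MN1 effect did not. Nos2 (chromosome 11, 78920787 to 78960254, plus strand), the inducible nitric oxide synthase of activated myeloid cells, stood at 0.368, 0.683 and 0.83 CPM in MN1_KO against 1.42, 0.766 and 0.554 CPM in MN1_WT, and at 12.5, 8.37 and 30.7 CPM in aged_KO against 0.341, 0.291 and 0.153 CPM in aged_WT. The MN1 groups overlapped and the aged groups did not. Its difference was -6.56 ± 0.85 (edgeR adjusted p = 0.00655). Gfra1 (chromosome 19, 58235604 to 58455909, minus strand), a receptor for glial cell line-derived neurotrophic factor, was nearly lost from aged_KO at 0.241, 0.429 and 0.0706 CPM against 8.75, 6.65 and 8.35 CPM in aged_WT, but stood at 16, 21.9 and 12.6 CPM in MN1_KO against 13.4, 15.2 and 5.9 CPM in MN1_WT. The MN1 libraries overlapped here too, and the difference was 5.42 ± 0.66 (edgeR adjusted p = 0.00603).

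Cnp (chromosome 11, 100574904 to 100591729, plus strand), a nucleotide phosphodiesterase best known from myelin, had a smaller and tighter difference. It stood at 62.6, 56.6 and 60.4 CPM in MN1_KO against 64.6, 66.2 and 70.8 CPM in MN1_WT, and at 30.9, 31.5 and 26.9 CPM in aged_KO against 115, 118 and 147 CPM in aged_WT. The aged groups lay far apart and the MN1 groups were apart by little. Its effect was -0.17 ± 0.12 with MN1 and -2.09 ± 0.13 without, a difference of 1.92 ± 0.18 (edgeR adjusted p = 0.00155) that was 1.92 again without MN1_WT replicates 2 and 4. Scamp1, a carrier-vesicle membrane protein, averaged 66.7 CPM in MN1_KO against 65.7 CPM in MN1_WT, and 122 CPM in aged_KO against 41.4 CPM in aged_WT, a difference of -1.54 ± 0.24. Rps6ka2, the kinase RSK3, rose in both experiments, with 304, 466 and 326 CPM in MN1_KO against 51.9, 76.3 and 57.3 CPM in MN1_WT, and 105, 102 and 92 CPM in aged_KO against 62, 59.2 and 50.6 CPM in aged_WT, a difference of 1.76 ± 0.27 (edgeR adjusted p = 0.0131). The Cnp and Rps6ka2 calls held in 12 of 12 fits without 1 library, and the Scamp1 call in 11, its edgeR adjusted p being 0.0501 without aged_WT 7. The Rps6ka2 and Scamp1 calls ended without MN1_WT replicates 2 and 4 together, at 1.43 and -1.18 (edgeR adjusted p = 0.132 and 0.0922).

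Cholesterol and fatty acid synthesis was the list with the largest share of members past the threshold in the fit of all 12 libraries. The proteins of this list make sterols and fatty acids or control that synthesis, and cells raise them together when sterols are short. Of 26 members tested, 10 had a lower difference and 0 a higher one, 38.5% beside 1.92% of all genes for the lower direction. The shares of all genes, 1.41% higher and 1.92% lower, stand beside the count of every list below. Without MN1_WT 3 the order of the lists was another, with 9 of 11 Hoxa genes and 18 of 24 mitosis genes past the threshold beside 18 of these 26. The median over the 26 was -0.92, against 0.08 for all genes, and it combined -0.51 with MN1 and 0.43 without. The summed level of the list was 1060, 1150 and 881 CPM in MN1_KO against 1490, 1200 and 1550 CPM in MN1_WT. It was 1530, 1610 and 1850 CPM in aged_KO against 1160, 1270 and 1220 CPM in aged_WT.

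Msmo1 (chromosome 8, 64718139 to 64733792, minus strand), a sterol demethylating oxidase, stood at 13.3, 15.6 and 20.1 CPM in MN1_KO against 40.2, 24.4 and 46.4 CPM in MN1_WT, and at 46.8, 57.2 and 64.6 CPM in aged_KO against 39.7, 36.6 and 28.8 CPM in aged_WT. Neither pair of groups overlapped. Its difference was -1.86 ± 0.35 (edgeR adjusted p = 0.0233), and -1.28 without MN1_WT replicates 2 and 4 (edgeR adjusted p = 0.177). Idi1, the isopentenyl diphosphate isomerase, had a difference of -1.58 ± 0.31. Msmo1 and Idi1 each passed in 4 of the 12 fits without 1 library (edgeR adjusted p = 0.0501 to 0.0888 in the others). Others that passed were Hmgcs1, a synthase of the pathway, at -1.49, Fdps, farnesyl diphosphate synthase, at -1.95, Sqle, squalene epoxidase, at -1.67, Hsd17b7, a sterol ketoreductase, at -2.73, Insig1, which holds the pathway's regulator in the endoplasmic reticulum, at -1.58, and Srebf2, that regulator, at -1.30. In all 10 the fitted effect was below 0 with MN1 and above 0 without it. The MN1 effect on its own passed as lower in 7 of the 26 (2.17% of all genes), and the aged effect as higher in 1 (1.69%) and lower in 1 (4.18%). The count of 10 was 1 without aged_WT 1, 6 or 7, aged_KO 9, or MN1_WT 2 or 4, and 18 without MN1_WT 3, while the median of the list stayed between -1.06 and -0.84 in all 12 fits. Without MN1_WT replicates 2 and 4 together the median was -0.74 and 1 member passed.

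Hmgcs1 is shown with its promoter, being the 1 gene among the 6 passing members with a promoter in the RefSeq table (GRCm38.p6, chr13:119690101-119690400, plus strand) that held the letters CACCCCAC, a core of sterol regulatory elements, on either strand. Capitals mark that match. The gene was chosen after its values were seen.
Hmgcs1: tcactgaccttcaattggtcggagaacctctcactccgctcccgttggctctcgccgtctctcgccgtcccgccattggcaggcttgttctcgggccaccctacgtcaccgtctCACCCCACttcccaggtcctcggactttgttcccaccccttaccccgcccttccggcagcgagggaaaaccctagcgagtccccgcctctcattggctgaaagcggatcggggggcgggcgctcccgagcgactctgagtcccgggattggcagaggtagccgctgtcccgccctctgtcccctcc
The same letters were in 942 of 32851 promoter windows, 2.87%. Hmgcs1 averaged 32.8 CPM in MN1_KO against 57.9 CPM in MN1_WT, and 52.6 CPM in aged_KO against 33.1 CPM in aged_WT.

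Genes of cytosolic ribosomal proteins had differences on the other side of 0. Of 50 tested, 49 had a difference above 0 and 5 passed, all higher (10% beside 1.41%), with a median of 0.94 made of 0.39 with MN1 and -0.53 without. Rps7, a small-subunit protein, stood at 916, 958 and 927 CPM in MN1_KO against 624, 782 and 541 CPM in MN1_WT, and at 549, 716 and 868 CPM in aged_KO against 1140, 1220 and 1200 CPM in aged_WT, a difference of 1.26 ± 0.27 (edgeR adjusted p = 0.0359). The groups were apart in both experiments, while the aged_KO libraries spread. Rpl22, Rpl35 and Rps24 had differences of 1.17, 1.2 and 1.21. None of the 5 passed without aged_WT 1, 6 or 7, aged_KO 3 or 9, MN1_WT 2 or 4 or MN1_KO 5 or 7, 31 passed without MN1_WT 3, and the median stayed between 0.80 and 1.16. Tested genes with transcripts under 0.5 kb and of 0.5 to 1 kb had median differences of 0.56 and 0.43 whatever their list. The part of transcript length in the ribosomal protein result was not tested.

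Transcript length moved with the difference. The median effective length, recovered from the deposited counts and FPKM, was 1.79 kb for the genes with a higher difference (190 of 196 with a length), 3.84 kb for those with a lower one (252 of 267), and 2.62 kb for all tested genes with a length (12607). The median difference was 0.56 for genes under 0.5 kb and -0.31 for genes over 6 kb. It was carried by both experiments in opposite directions: the MN1 effect had medians of 0.16 and -0.1 in these classes, and the aged effect -0.39 and 0.23. In the shortest class 17 genes were higher and 2 lower, and in the longest 2 and 52. The expression-weighted mean length of a library was 1.84, 1.63 and 1.3 kb in MN1_KO, 1.6, 1.83 and 1.59 kb in MN1_WT, 1.58, 1.44 and 1.36 kb in aged_KO and 1.37, 1.38 and 1.41 kb in aged_WT. That mean is 1 value per library and comes from the same expression values, so it cannot test the part of a gene's own length. Entered as a covariate, it raised the number of genes past the threshold to 3049. With it the median of the cholesterol list was -0.92 again, with 16 of 26 past the threshold. That of the cytosolic ribosomal protein list was 0.82 against 0.94, with 36 of 50 past the threshold against 5. Medians of other lists moved: that of the secondary granule list was -1.78, against -1.07 without the covariate, with 12 of 12 members past the threshold against 1. For the mature neutrophil list it was -1.49 against -0.61, with 16 of 17 against 5, and for the erythroid list -0.26 against 0.84, with 2 of 23 against 0.

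**Figure D3:**
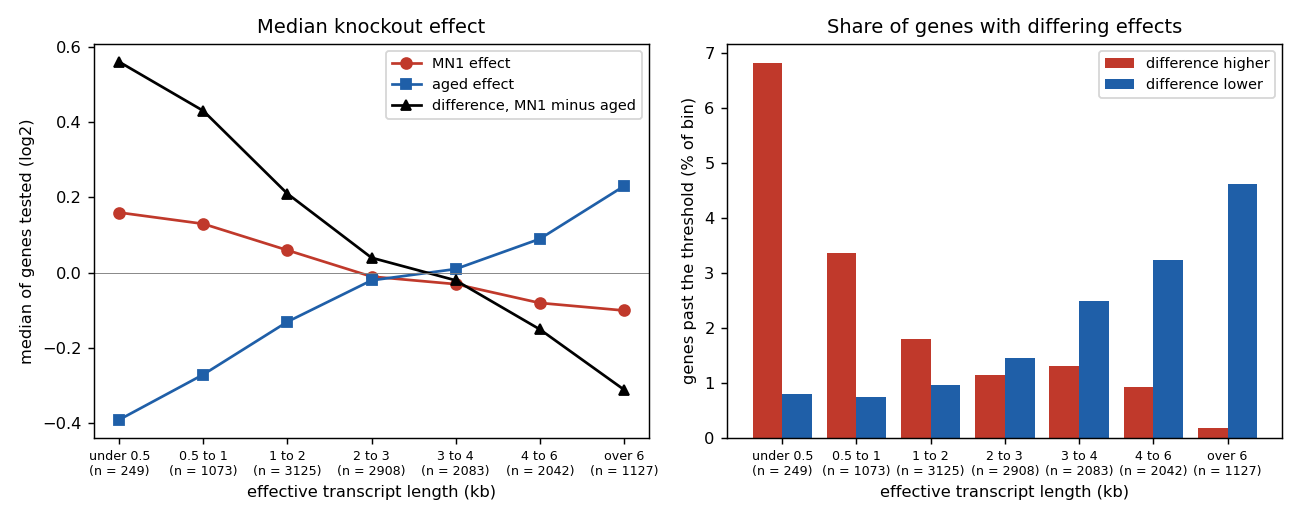
Left, median log2 knockout effect of the tested genes in 7 classes of effective transcript length (kb), with MN1, without it (aged) and as their difference; right, share of each class (%) whose difference was higher or lower at the threshold. The difference falls from 0.56 in the shortest class to -0.31 in the longest, and the lower genes outnumber the higher ones 52 to 2 in the longest.

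Antigen presentation genes fell with the knockout in the aged experiment, where the effect passed as lower in 16 of 20 beside 4.18% of all genes. All 20 tested had a difference above 0, with a median of 0.72 (-0.11 with MN1, -1.25 without), and 4 passed as higher (20% beside 1.41%). H2-DMa, a chaperone that loads peptides on class II molecules, stood at 65.5, 60.8 and 69 CPM in MN1_KO against 51.1, 65.2 and 48.1 CPM in MN1_WT, and at 31.4, 33.8 and 27.3 CPM in aged_KO against 62.3, 67.9 and 88.3 CPM in aged_WT. The MN1 groups overlapped and the aged groups did not. Its difference was 1.49 ± 0.23 (edgeR adjusted p = 0.0134). Its partner H2-DMb1 had 1.67 ± 0.28, the class I gene H2-Q4 had 1.18 ± 0.26, and H2-Oa, which modulates H2-DM, had 3.15 ± 0.75. The class II molecules are made by B cells and dendritic cells, and the part of those cells in this result was not tested. The dendritic list held 449 to 653 CPM in the MN1_KO libraries and 244 to 1020 CPM in the MN1_WT libraries, beside 168 to 277 CPM in aged_KO and 731 to 831 CPM in aged_WT, and the B cell lists are given below. Flt3, also on the stem and progenitor list, averaged 285 CPM of that sum in MN1_KO and 206 CPM in MN1_WT. The median effect over the 13 dendritic genes was -1.09 with MN1 and -1.6 without, so the sum does not measure dendritic cells alone. Without MN1_WT 2 none of the 4 passed (edgeR adjusted p = 0.0543 for H2-DMa), and H2-DMb1 did not pass without aged_KO 3 either (0.0514). The H2-Q4 call held in 3 of 12 fits and ended without any aged library, MN1_WT 2 or 4, or MN1_KO 7 (edgeR adjusted p = 0.0568 to 0.118). Without MN1_WT 3, 9 of the list passed. The H2-Oa call held in 2 of 12 fits, those without MN1_WT 3 or MN1_KO 8 (edgeR adjusted p = 0.0754 to 0.127 in the others). The median was 1.14 and 0 passed without MN1_WT replicates 2 and 4 together.

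The type I interferon response had 2 of 24 members higher and 0 lower, beside 1.41% and 1.92% of all genes, with a median of 1.11. They were Xaf1, a proapoptotic interferon target, at 2.11 ± 0.42, and Bst2, which tethers budding virus, at 2.06 ± 0.36, which stood at 60.6, 47.1 and 106 CPM in MN1_KO against 51.2, 51.7 and 45.1 CPM in MN1_WT, and at 28.3, 34.5 and 23.7 CPM in aged_KO against 79.1, 91.2 and 79.4 CPM in aged_WT. Interferon-inducible GTPases had 14 of 14 differences above 0 with a median of 0.88, and 0 of 14 passed by edgeR. At an unadjusted p below 0.05 there were 8, and DESeq2 called 3 and limma-trend 1. Irgm1, which acts in cell-intrinsic defence against intracellular microbes, had the smallest p, at 1.23 ± 0.30 (edgeR adjusted p = 0.052). The Bst2 and Xaf1 calls ended without aged_WT 6 or 7, aged_KO 3, or MN1_WT 2 or 4, and the Xaf1 call also without aged_WT 1, aged_KO 9 or aged_KO 10 (edgeR adjusted p = 0.0501 to 0.0869).

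Of 18 glutathione genes tested, 1 passed as higher and 3 as lower, beside 1.41% and 1.92% of all genes, and 14 did not pass (median -0.22). Beside Ggt1, the lower genes were its relative Ggt5, at -2.64 ± 0.56, and Gclm, the regulatory subunit of the enzyme that starts glutathione synthesis, at -1.38 ± 0.21. Gclm stood at 39.5, 34.6 and 39.5 CPM in MN1_KO against 67.4, 50.3 and 67.2 CPM in MN1_WT, and at 94.7, 91.3 and 101 CPM in aged_KO against 54, 56.1 and 69.3 CPM in aged_WT. It crossed without overlap, as Ggt1 did. The higher gene was Gstt1, a glutathione transferase, at 3.69 ± 0.62, whose call ended without aged_WT 6 or 7 or aged_KO 9 (edgeR adjusted p = 0.0502 to 0.0559). The Ggt5 call held in 3 of 12 fits, and ended without any aged library, MN1_WT 2 or 4, or MN1_KO 7 (edgeR adjusted p = 0.0595 to 0.106). The median of the list was 0.54 without MN1_WT replicates 2 and 4 together, where Gclm did not pass (edgeR adjusted p = 0.109).

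In the TNF, IL-1 and NF-kB list 1 of 22 was higher and 2 were lower, with a median of -0.65. The lower genes were Nos2 and Bcl3, a nuclear inhibitor-like cofactor of NF-kB, at -2.31 ± 0.51, and the higher gene was the cytokine Il1a at 2.95 ± 0.64. Bcl3 stood at 9.26, 11.1 and 22.3 CPM in MN1_KO against 36.3, 16.1 and 36.7 CPM in MN1_WT, and at 62.7, 72.3 and 57.1 CPM in aged_KO against 22.2, 30.9 and 27.5 CPM in aged_WT. The MN1 groups overlapped at MN1_WT replicate 3, and the calls of Bcl3 and Il1a held in 2 of 12 fits, those without MN1_WT 3 or MN1_KO 8 (edgeR adjusted p = 0.0581 to 0.106 in the others). The median was -0.13 without MN1_WT replicates 2 and 4 together.

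Granulocyte lists had medians below 0 apart from the stefins. All 10 primary granule genes had a difference below 0 (median -1.31, made of -0.38 with MN1 and 0.89 without), and 1 passed, Fcnb, a ficolin that binds microbial sugars, at -3.19 ± 0.76 (edgeR adjusted p = 0.0482). Its call held only without MN1_WT 3 or MN1_KO 8 among the 12 fits (edgeR adjusted p = 0.052 to 0.132 in the others). The 12 secondary granule genes had a median of -1.07 with 11 below 0, and the 1 that passed, Olfm4, was higher. Of 17 mature neutrophil genes, 5 passed (29.4%): the 4 stefins were higher and Mxd1, a Max partner that opposes Myc, was lower at -2.47 ± 0.54, while the median was -0.61. The Mxd1 call held in 3 of 12 fits, and ended without any aged library, MN1_WT 2 or 4, or MN1_KO 7 (edgeR adjusted p = 0.0546 to 0.111). With the length covariate given above, 12 of 12 secondary granule and 16 of 17 mature neutrophil genes passed. Without MN1_WT replicates 2 and 4 the medians of the primary granule, secondary granule and mature neutrophil lists were 0.09, -0.09 and 0.36. The summed primary granule level was 3560 to 5420 CPM in MN1_KO against 9530 and 6740 CPM in MN1_WT replicates 2 and 4 and 2150 CPM in replicate 3, and 9790 to 17000 CPM in aged_KO against 5770 to 7790 CPM in aged_WT.

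**Figure D4:**
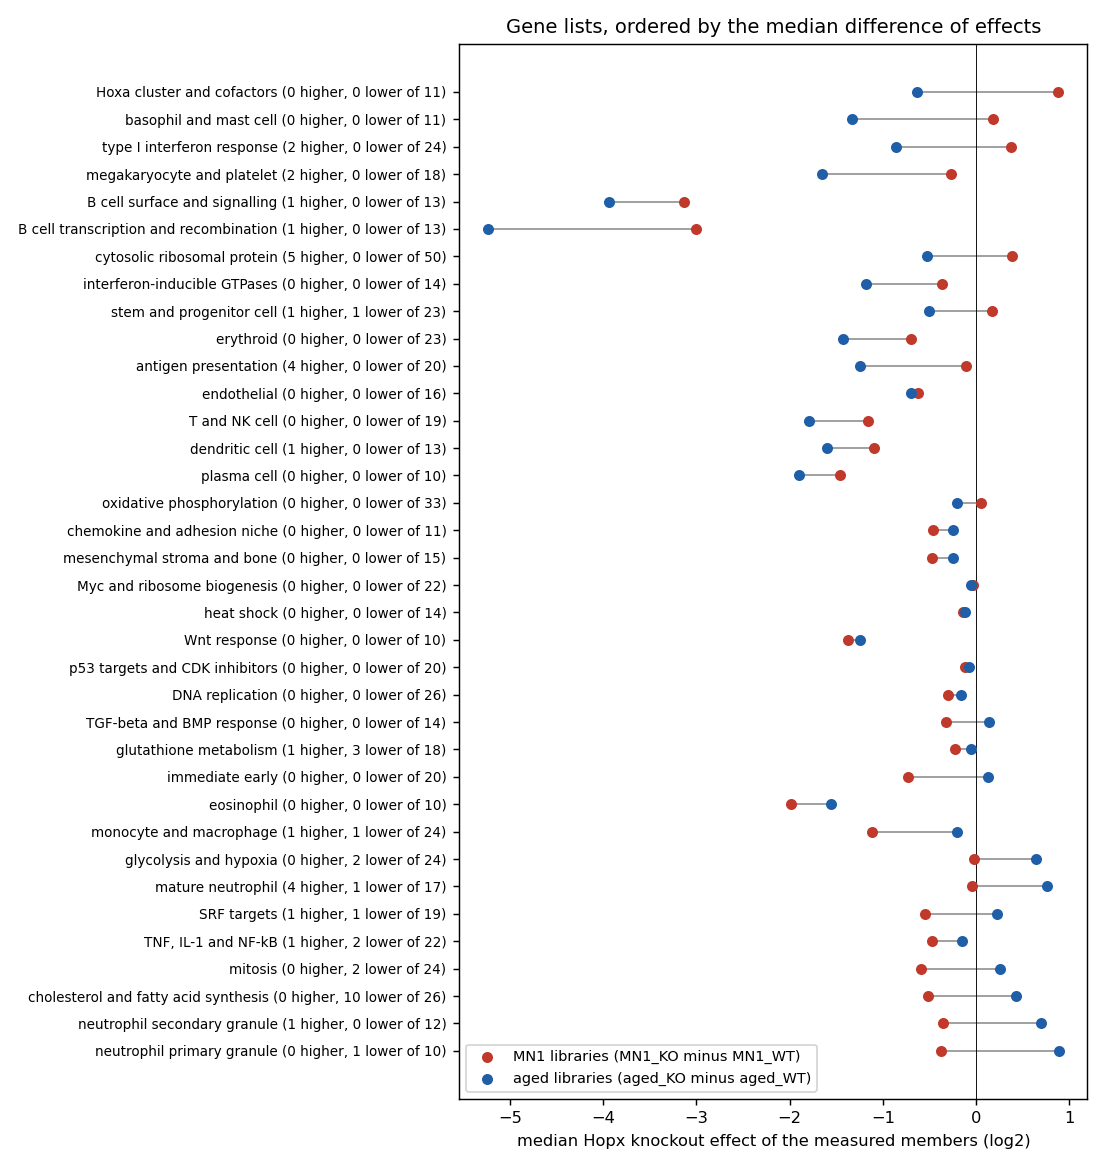
Median log2 knockout effect of each gene list with MN1 (red, MN1_KO minus MN1_WT) and without it (blue, aged_KO minus aged_WT), ordered by the median difference of effects, with the number of members past the threshold beside each name. Both B cell lists are far below 0 in both experiments, while the cholesterol list (10 lower of 26) has medians of -0.51 and 0.43 on opposite sides of 0.

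Summed levels of B cell genes were lower in the knockout libraries of both experiments, and the effect on 1 of 13 in each of the 2 lists differed between them. Of 13 transcription and recombination genes, the MN1 effect passed as lower in 8 (2.17% of all genes) and the aged effect in 13 (4.18%). Of 13 surface and signalling genes, the MN1 effect passed as lower in 8 and the aged effect in 11. The median difference was 1.00 in each list. The summed level of the first of these lists was 67, 65.1 and 36.1 CPM in MN1_KO against 408, 92.7 and 277 CPM in MN1_WT, and 42.8 to 62.1 CPM in aged_KO against 421 to 570 CPM in aged_WT. For the other list this sum was 98.5, 110 and 61.5 CPM in MN1_KO, 342, 178 and 310 CPM in MN1_WT, 77.8 to 109 CPM in aged_KO and 674 to 1510 CPM in aged_WT. MN1_WT replicate 3 lay between the groups on both, and without MN1_WT replicates 2 and 4 the median differences were 4.04 and 3.01. The size of the MN1 effect thus rests mainly on MN1_WT replicates 2 and 4. Between them and MN1_KO, Hopx genotype, Mn1 level and the expression of sex-linked genes cannot be told apart.

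Rag2 (chromosome 2, 101624718 to 101632529, plus strand), which with Rag1 cuts antigen receptor genes, had a difference of 6.46 ± 1.19 (edgeR adjusted p = 0.0222). It stood at 22.2, 17.3 and 3.01 CPM in MN1_KO against 8.35, 10.8 and 4.43 CPM in MN1_WT, and at 0.301, 0.0429 and 0 CPM in aged_KO against 7.62, 3.88 and 5.75 CPM in aged_WT. The MN1 groups overlapped, and the level in aged_KO was near 0, so the size of the difference depends on the prior count. Rag1, its partner, had an effect of -4.23 with MN1 and -7.00 without, and a difference of 2.78 ± 1.36 that did not pass (edgeR adjusted p = 0.256). The Rag2 call ended without aged_WT 1, 6 or 7, aged_KO 9, or MN1_WT 2 or 4 (edgeR adjusted p = 0.0541 to 0.0761). Cd79b, a signalling chain of the B cell receptor, had 2.56 ± 0.54, with 14.3, 21.9 and 23.7 CPM in MN1_KO against 45.5, 16.4 and 39.9 CPM in MN1_WT, and 13.2 to 17.9 CPM in aged_KO against 110 to 233 CPM in aged_WT. Its call held in 4 of 12 fits, and ended without aged_WT 6 or 7, any aged_KO library, MN1_WT 2 or 4, or MN1_KO 7 (edgeR adjusted p = 0.0559 to 0.0976).

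Among other blood lineages the counts were small. Platelet genes had 2 of 18 higher and 0 lower (median 1.09), Gp5 and Gp9, subunits of the receptor for von Willebrand factor, at 3.26 ± 0.65 and 2.92 ± 0.67. Macrophage genes had 1 higher, the mannose receptor Mrc1 at 2.04 ± 0.46, and 1 lower, the iron exporter Slc40a1 at -2.51 ± 0.42, of 24. Slc40a1 stood at 27.4, 40.4 and 42.3 CPM in MN1_KO against 183, 86.8 and 221 CPM in MN1_WT, and at 234 to 291 CPM in aged_KO against 175 to 214 CPM in aged_WT. Bst2 was the 1 of 13 dendritic cell genes past the threshold. By edgeR 0 of 19 T and NK cell, 0 of 10 plasma cell, 0 of 23 erythroid, 0 of 10 eosinophil and 0 of 11 basophil and mast cell genes passed, while 6, 0, 4, 0 and 0 had an unadjusted p below 0.05 and DESeq2 called 4, 0, 1, 0 and 0. Gp5, Gp9 and Mrc1 held in 4, 3 and 3 of 12 fits and Slc40a1 in 9, which was lost without aged_WT 6, aged_WT 7 or aged_KO 9 (edgeR adjusted p = 0.0522 to 0.0575). The Gp5 and Gp9 calls ended without any aged_WT library, aged_KO 3 or 9, MN1_WT 2 or 4, or MN1_KO 7, the Gp9 call also without aged_KO 10, and the Mrc1 call without any aged library, MN1_WT 2 or 4, or MN1_KO 5 (edgeR adjusted p = 0.055 to 0.117).

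Genes of stem and progenitor cells, in which Hopx is best known, had 1 higher and 1 lower of 23, with a median of 0.84. Hoxb4, a homeobox gene that promotes stem cell expansion, stood at 0.769, 0.726 and 0.393 CPM in MN1_KO against 7.58, 2.3 and 5.97 CPM in MN1_WT, and at 10.4, 8.37 and 9.81 CPM in aged_KO against 6.31, 6.89 and 5.7 CPM in aged_WT. MN1_KO was below every other library. Its difference was -3.64 ± 0.58 (edgeR adjusted p = 0.0136, and 0.0533 without aged_WT 7). Slamf1, the surface marker CD150 of stem cells, stood at 4.91, 9.27 and 6.16 CPM in MN1_KO against 2.72, 7.76 and 4.55 CPM in MN1_WT, and at 1.02, 0.945 and 1.06 CPM in aged_KO against 5.11, 4.9 and 6.97 CPM in aged_WT, a difference of 2.92 ± 0.55. That call ended without any aged_WT library, aged_KO 3 or 9, MN1_WT 2 or 4, or MN1_KO 7 (edgeR adjusted p = 0.0516 to 0.0788). Without MN1_WT replicates 2 and 4 the median of the list was 0 and Hoxb4 did not pass, at -2.47 (edgeR adjusted p = 0.0628), and without MN1_WT 3 the count was 12.

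Hoxa genes and their cofactors, which mark MN1 leukaemia, had 0 of 11 past the threshold by edgeR, 0 at an unadjusted p below 0.05 and 0 by DESeq2, with a median difference of 1.67. The list summed to 358, 285 and 121 CPM in MN1_KO against 27.8, 485 and 17.9 CPM in MN1_WT replicates 2, 3 and 4, and to 19.9 to 21.6 CPM in aged_KO against 25.2 to 27.7 CPM in aged_WT. The highest library was MN1_WT replicate 3, and MN1_WT replicates 2 and 4 stood at the level of the aged libraries. Without MN1_WT replicate 3 the median was 5.42 and 9 members passed, and without MN1_WT replicates 2 and 4 it was 0.32 and 0 passed.

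Mitosis and glycolysis genes mostly had differences below 0. All 24 mitosis genes had a difference below 0 (median -0.84), and 2 passed, Mki67, the proliferation antigen, at -1.41 ± 0.34 and Top2a, topoisomerase 2 alpha, at -1.28 ± 0.31 (edgeR adjusted p = 0.0482 and 0.0499). Mki67 stood at 578, 570 and 503 CPM in MN1_KO against 1150, 637 and 1350 CPM in MN1_WT, and at 1500, 1470 and 1390 CPM in aged_KO against 1040, 1160 and 937 CPM in aged_WT. MN1_WT replicate 3 lay just above MN1_KO, and of the 12 fits without 1 library only that without MN1_WT 3 kept these 2 calls, with 18 members past the threshold (edgeR adjusted p = 0.0545 to 0.14 in the others). The median was -0.22 without MN1_WT replicates 2 and 4. Glucose transporters Slc2a1 and Slc2a3, at -1.41 ± 0.28 and -2.63 ± 0.58, were the 2 of 24 glycolysis and hypoxia genes that passed, both lower, and 20 of the 24 were below 0. Of 33 oxidative phosphorylation genes, 28 had a difference above 0 and 0 passed (median 0.23). Neither Slc2a1 nor Slc2a3 passed without any 1 of the 6 aged libraries or of MN1_WT 2 and 4, nor Slc2a3 without MN1_KO 5 or 7 (edgeR adjusted p = 0.0503 to 0.112).

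Among actin and contractile targets of SRF, a factor with which Hopx is known to interact in the heart, 1 of 19 was higher and 1 lower. Tpm2, a tropomyosin, stood at 9.06, 4.61 and 5.94 CPM in MN1_KO against 0.689, 3.03 and 1.23 CPM in MN1_WT, and at 0.361, 0.644 and 0.706 CPM in aged_KO against 2.78, 2.62 and 3.56 CPM in aged_WT. It crossed without overlap, with a difference of 4.36 ± 0.74. Vcl, vinculin of focal adhesions, had -1.63 ± 0.36. The Tpm2 call ended without aged_WT 6 or 7, aged_KO 3 or 9, or MN1_WT 4, and the Vcl call held only without MN1_WT 3 or MN1_KO 8 among the 12 fits (edgeR adjusted p = 0.0506 to 0.115).

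Wnt responses and TGF-beta and BMP responses, pathways that Hopx is known to connect in the developing heart, had 0 of 10 and 0 of 14 members past the threshold by edgeR. At an unadjusted p below 0.05 there were 0 and 4, and DESeq2 called 0 and 1. The target genes were Ccnd1 at -1.89 ± 0.95 and Tgfbi at -2.42 ± 0.6 (edgeR adjusted p = 0.265 and 0.0523). The chemokine Cxcl12, which retains stem cells in marrow, had a difference of 0.15 ± 0.72, and its receptor Cxcr4 of -0.09 ± 0.39 (edgeR adjusted p = 0.927 and 0.919). Cxcl12 stood at 25.2, 23.7 and 50.6 CPM in MN1_KO against 68.6, 51.4 and 135 CPM in MN1_WT, and at 23.1, 36.1 and 7.62 CPM in aged_KO against 65, 55.8 and 70.3 CPM in aged_WT. Both experiments had lower levels in the knockout libraries without overlap, and neither effect passed. By edgeR 0 members also passed in the niche, endothelial, stromal, immediate early, DNA replication, Myc, oxidative phosphorylation, p53, heat shock and sex-specific lists. Over all 19 lists with none past the threshold, 49 of 305 tested entries had an unadjusted p below 0.05 (16.1%, beside 22.2% of all tested genes), and DESeq2 called 20, limma-trend 7 and limma voom 1.

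The 463 calls depended strongly on single libraries. The count was 54 to 3359 when 1 library was left out: 3359 without MN1_WT 3, 869 without MN1_KO 8, 54 to 132 without 1 aged_WT library, 88, 73 and 291 without aged_KO 3, 9 and 10, 86 and 99 without MN1_WT 2 and 4, and 296 and 228 without MN1_KO 5 and 7. All 463 kept their sign in each of the 12 fits, and 47 passed in every one. Genes chosen for a difference far from 0 readily keep its sign in fits of mostly the same libraries, so the kept sign is a description. Without MN1_WT replicates 2 and 4 together, which leaves MN1 libraries that all express Mn1, 39 genes passed, 34 of them among the 463. Of the 62 calls of named genes, 44 ended there (edgeR adjusted p = 0.0627 to 0.39) and 18 held, those of Hopx, Ggt1, Lmo7, Prok2, Cxcr1, Ifitm1, Upp1, Lrrc75b, Dmxl2, Tbc1d14, Gpam, Cyp2j6, Dock1, Chil5, Nos2, Gfra1, Cnp and Cd79b. Among lists whose median is not given above without these libraries, it moved by more than its median SE for the T and NK cell list (1.19, against 0.61 with all libraries), the monocyte and macrophage list (0.71 against -0.41), the SRF targets (0.11 against -0.61) and DNA replication (0.27 against -0.15).

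By both measures 25 genes held, passing in all 12 fits and also without those 2 libraries, 9 higher and 16 lower. In 24 of the 25 the effects had opposite signs, Cnp being the exception, and in 21 neither pair of groups overlapped (8.37% of all tested genes do so). Over all tested genes 57.8% had effects of opposite sign. Choosing genes by the difference favours opposite signs and groups that lie apart, so these counts are a description. Among the 25 genes, those not described above included the kinase gene Nuak1 at 4.04, Socs5, an inhibitor of cytokine signalling, at 3.29, Pafah1b3, a catalytic subunit of platelet-activating factor acetylhydrolase, at 2.94, Ica1, a vesicle protein known as an autoantigen, at -3.8, Dmc1, a meiotic recombinase, at -4.03, Rufy4, a regulator of autophagy, at -2.88, the pseudogene Rpl14-ps1 at 3.58 and the predicted gene Gm3893 at -3.92. These were chosen after their values were seen.

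**Figure D5:**
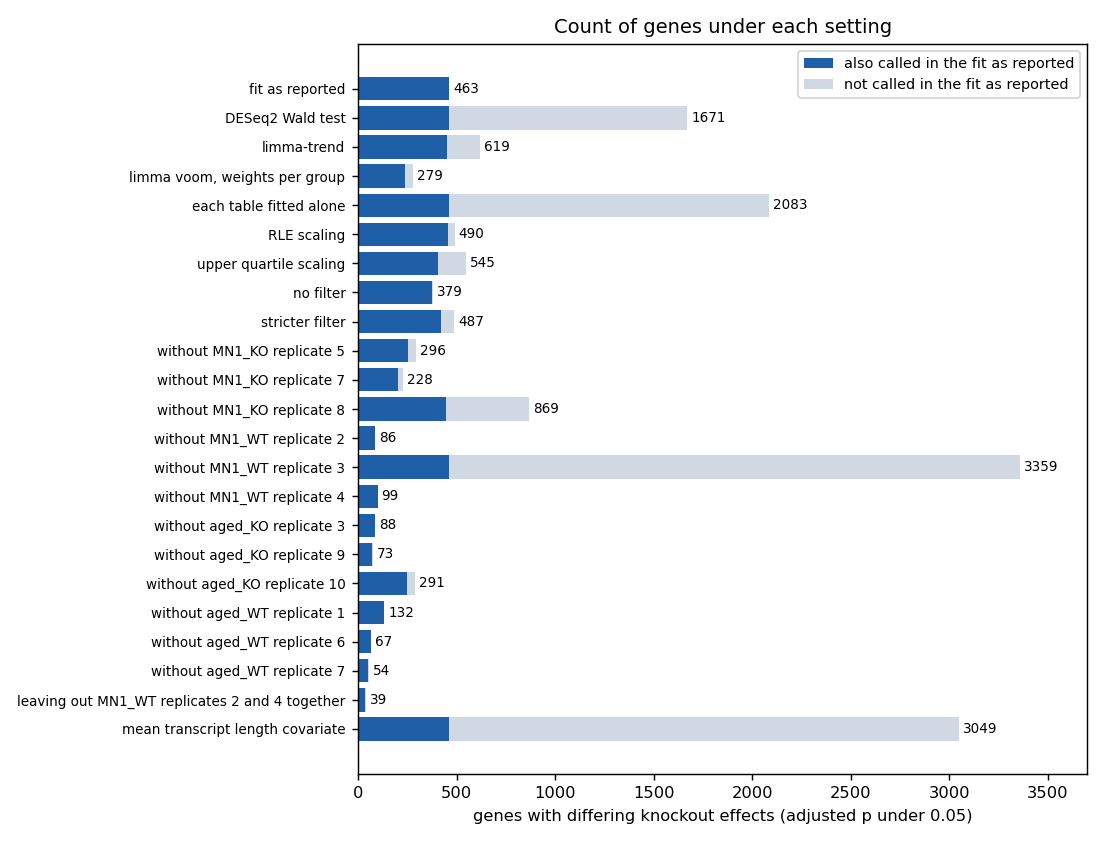
Number of genes with differing knockout effects at an adjusted p below 0.05 (horizontal axis) under each setting (vertical axis), with the part shared with the 463 genes reported in dark blue. The count is 3359 without MN1_WT replicate 3 and 39 without MN1_WT replicates 2 and 4, of which 34 are shared.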

How the data were processed

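RNA of 12 mouse bone marrow samples was measured by stranded mRNA sequencing. Per the submitters' processing notes, reads were processed with Bowtie2 2.3.4.3, RSEM 1.2.28 and the mm10 build, and the annotation is not given in the sources used here. The deposited tables, 1 for the MN1 and 1 for the aged samples, hold expected counts, TPM and FPKM per gene symbol, made by the authors. The deposited TPM values were not used, and the deposited FPKM values were used only to recover effective transcript length. Between 5.2% and 6.84% of a library's expected counts were not whole, and all were rounded. Library totals of 16544388 to 28409034 counts limit precision mainly for low genes, and intervals cover counting error only.

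Both tables were fitted together in R 4.3.3 with edgeR 4.0.16 (filterByExpr, TMM scaling, robust quasi-likelihood test, 1 mean per group), with Benjamini-Hochberg adjustment over 13937 genes and a threshold of 0.05. SE is the size of the log2 change over the square root of F. A shift common to 1 table cancels in the difference of effects. limma 3.58.1, DESeq2 1.42.0, other scalings and filters, each table alone, libraries left out and a mean transcript length covariate were alternatives. The labels do not say that replicates came from separate animals, so p-values measure only the spread between these samples, which may be technical. No pair of libraries was identical (highest correlation 0.9935).

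Named genes were Hopx, Mn1, Cxcl12 and Cxcr4, up to 15 passing genes with the largest difference in each direction, the 5 with the smallest p in each sign pattern, and the 2 or 3 members with the smallest p in each list. The size and sign parts of the rule needed a mean log2 CPM of at least 1 and left out predicted genes, clones and pseudogenes. Other genes named from a list are members that passed. Some genes that this rule names are not reported here. The members and lists were chosen with earlier results of these data known. Positions are from GENCODE M21, and promoters from a RefSeq table of GRCm38.p6. The fit was run on simulated data with the same dispersion in every group, so that run does not cover a mixed group such as MN1_WT.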

Additional observations from a re-analysis of the deposited data

Results flagged for a closer look

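The difference between the 2 knockout effects was itself tested for every gene, and 463 genes passed (edgeR adjusted p below 0.05). The values below are log2 differences, MN1 minus aged, of the named genes among them. Here with MN1 means the libraries labelled MN1. Unscaled Mn1 was 0.395 and 0.16 CPM in MN1_WT replicates 2 and 4, at the level of the aged libraries. Between those 2 libraries and MN1_KO, Hopx genotype and Mn1 level cannot be told apart. The knockout effect was higher with MN1 for Hopx at 6.12, Lmo7 at 6.53, Rag2 at 6.46, Stfa1 at 6.43, Stfa3 at 6.37, BC100530 at 5.85, Ces1d at 5.84, Rab15 at 5.8, Hpgd at 5.52, Gfra1 at 5.42 and Gpx7 at 5.28. It was also higher for Stfa2 at 5.16, Gpam at 4.61, Cyp2j6 at 4.51, Olfm4 at 4.5, Cnp at 1.92, Rps6ka2 at 1.76, Cd79b at 2.56, Bst2 at 2.06, Mrc1 at 2.04, Gp5 at 3.26 and Gp9 at 2.92. Higher values were further found for Slamf1 at 2.92, Xaf1 at 2.11, H2-DMa at 1.49, H2-DMb1 at 1.67, H2-Q4 at 1.18, Il1a at 2.95, Tpm2 at 4.36, Rps7 at 1.26, Rpl35 at 1.2, Rpl22 at 1.17 and Gstt1 at 3.69. The knockout effect was lower with MN1 for Lipg at -7.31, Nos2 at -6.56, Ggt1 at -6.43, Prok2 at -5.85, Lrrc75b at -4.97, Dock1 at -4.93, Cxcr1 at -4.79, Asprv1 at -4.64, Stxbp6 at -4.39 and Ifitm1 at -4.29. It was also lower for Upp1 at -4.24, Chit1 at -4.24, Skint3 at -4.22, Dmxl2 at -4.17, Tbc1d14 at -1.44, Chil5 at -3.93, Scamp1 at -1.54, Fcnb at -3.19, Slc40a1 at -2.51, Hoxb4 at -3.64 and Bcl3 at -2.31. Lower values were further found for Vcl at -1.63, Slc2a1 at -1.41, Slc2a3 at -2.63, Msmo1 at -1.86, Idi1 at -1.58, Mki67 at -1.41, Top2a at -1.28 and Gclm at -1.38.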

How the results depend on the processing

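The 463 genes whose knockout effects differed kept their sign under all 22 alternatives wherever they were measured (426 of 426 with a stricter filter), while counts moved. Choosing genes by the difference favours a kept sign in fits that reuse the libraries, so this too is a description. The count of 463 was 1671 with DESeq2, 279 with limma voom, 2083 with each table fitted alone (a normal approximation), 39 without MN1_WT replicates 2 and 4, 3049 with a mean transcript length covariate, and 54 to 3359 without 1 library. Genes higher (196) were 706, 120, 1058, 17 and 1272 under these settings, 309 with limma-trend, 335 with upper quartile scaling and 23 to 1946 without 1 library. Genes lower (267) were 965, 159, 1025, 22 and 1777, and 31 to 1413 without 1 library. The MN1 effect alone (464) was called for 1185, 54, 0, 38 and 1814 genes, and 110 to 3455 without 1 library; the 0 is edgeR on that table, with 1454 at an unadjusted p below 0.05. The aged effect alone (818) was called for 1793 with DESeq2, 3937 with voom, 4058 with its table alone, 2664 with the covariate, and 83 to 1722 without 1 library. Lists with at least 3 members called (6) were 17, 3, 19, 0 and 23 under the same settings, 3 with no filter, and 0 to 26 without 1 library. Upper quartile scaling gave 61.5% higher calls against 42.3%, and moved the median of all genes to 0.23 from 0.08. The covariate was chosen after seeing the data. The Hopx difference was 5.97 with voom (adjusted p = 0.0727) and 5.41 to 9.13 without 1 library, and the Mn1 difference 3.65 to 9.45 without 1 library. The cause of these changes was not tested. Of 814 list medians, 20 moved by more than their median SE. No paired analysis was possible because the groups compared share fewer than 2 replicate numbers. Depth limits genes near 0, Hopx in aged_KO among them.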
